A study of Mus musculus with 4 samples.

Results

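RNA contacts of the genes of the piRNA pathway were examined in mouse spermatogonial stem cells, the self-renewing germ cells of the testis from which sperm derive. The genes were taken by name: Tdrd9, Tdrd5 and Mov10l1, and, where listed, Tdrd1, Tdrd6, Piwil2, Mael, Rnf17, Ddx4 and Asz1. Of these 10 genes 9 were among the 13318 RNAs of the table, and Tdrd6 was not listed. They took part in 34 of 56636 listed pairs of RNAs. There were 2 libraries whose genotype field reads Differentiation, set against 2 libraries labelled WT and titled as controls. The sources used here state neither the inducer nor the duration, nor the kind of stem cell culture or the age of the animals. RIC-seq was the method: RNA and protein are fixed in the cell with formaldehyde, RNA is cut, ends that lie close together are joined, and the joined (chimeric) reads are counted per pair of RNAs.

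piRNAs are small RNAs of the germ line that guide PIWI proteins to the transcripts of transposons and silence them. Long precursor RNAs are handed to the nuage, granules beside the mitochondria of germ cells, where helicases and tudor-domain scaffold proteins gather the processing machinery. In mice, loss of many of these proteins stops spermatogenesis and releases transposons. Here the RNAs of these genes were measured, not the proteins and not the piRNAs themselves.

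The table held a pair only where all 4 libraries had at least 1 count, so contacts missing from any library were not analysed here. Library totals were 793129 and 1155923 counts in differentiation and 1209031 and 1400011 counts in controls. A contact total is the sum of all listed pairs of an RNA, with a contact of an RNA with itself counted once. Levels are given in CPM, counts scaled to library size by TMM. A change is the fitted log2 ratio, differentiation over control, and SE is its standard error. A change was called at a Benjamini-Hochberg adjusted p under 0.05 over all RNAs or pairs tested with edgeR's quasi-likelihood F test. Contact totals move with the amount of an RNA as well as with its contacts, and in bulk samples fewer cells of a type and less RNA per cell cannot be told apart. Whether the libraries of a group stem from different cultures is not in the labels. The p-values therefore rest on how far these libraries lie apart, which can be technical.

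Tdrd9, Tdrd5 and Mov10l1 lie on 3 chromosomes and their contacts rose together, so their promoters are shown for comparison. Each is the stretch of 300 bases that runs from 250 bases before the RefSeq start site to 50 after it (GRCm38.p6, 5′ to 3′ on the strand of the gene). The start is the one the RefSeq promoter table uses. It lies inside the gene's full span for Tdrd9 and Mov10l1, and for Tdrd5 the whole window does. Other starts of these genes were not examined. Capitals mark 2 motifs searched on both strands, the E-box CACGTG, bound by the MYC and MAX family of factors, and AACNG, a core of the sites of MYB factors. The motifs were picked after the promoters had been read, and they do not overlap each other.
Tdrd9 (chr12:111971309-111971608, plus strand): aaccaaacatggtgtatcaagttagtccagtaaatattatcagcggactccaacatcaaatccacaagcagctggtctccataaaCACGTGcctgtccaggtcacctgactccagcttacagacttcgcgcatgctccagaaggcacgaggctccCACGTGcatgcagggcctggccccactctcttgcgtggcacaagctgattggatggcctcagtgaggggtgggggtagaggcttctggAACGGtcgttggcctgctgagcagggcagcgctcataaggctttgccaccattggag
Tdrd5 (chr1:156303299-156303598, minus strand): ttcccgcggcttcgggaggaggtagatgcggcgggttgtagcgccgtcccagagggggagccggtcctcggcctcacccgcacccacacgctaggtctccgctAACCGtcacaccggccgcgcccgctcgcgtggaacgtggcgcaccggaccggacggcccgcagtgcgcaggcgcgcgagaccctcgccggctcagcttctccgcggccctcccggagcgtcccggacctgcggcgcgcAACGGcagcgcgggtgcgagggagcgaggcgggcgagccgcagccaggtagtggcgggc
Mov10l1 (chr15:88982744-88983043, plus strand): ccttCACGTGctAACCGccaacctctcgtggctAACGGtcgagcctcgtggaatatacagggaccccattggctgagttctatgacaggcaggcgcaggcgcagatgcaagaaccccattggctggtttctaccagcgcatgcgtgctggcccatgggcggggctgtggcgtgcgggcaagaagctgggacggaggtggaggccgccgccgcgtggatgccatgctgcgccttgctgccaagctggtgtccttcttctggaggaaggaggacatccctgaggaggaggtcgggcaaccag
Tdrd9 held 2 E-boxes, with first bases 165 and 95 bases before the start site, Mov10l1 held 1 that began 246 bases before it, and Tdrd5 held none. The E-box was in 7.15% of 32851 mouse promoters of this length, and AACNG, present in all 3, was in 80.3%. The letters CG occurred 10 times in the Tdrd9 promoter, 48 times in that of Tdrd5 and 20 times in that of Mov10l1, against a median of 7. Of the listed RNAs without a called rise (below), Mael and Ddx4 promoters held 1 E-box each. That of Asz1 held none, and those of Tdrd1 differed by start. AACNG was in all of these. The letters CG occurred in them 24 times for Mael, 38 for Ddx4, 17 for Asz1 and 3 to 25 for Tdrd1. Promoters of Piwil2 and Rnf17, also without a called rise of the contact total, are not given here. Of the wider list below, Tdrd12 and Stk31 had a called rise. Tdrd12 promoters held no E-box at either start, and Stk31 promoters held 1 at each. Those of Mybl1 and Hsp90aa1, also called, are not given. A match in these windows is a description and not a binding site.

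Tdrd9, which encodes a tudor-domain helicase of the nuage, had the largest rise of the 3 (gene at chr12:111971488-112068854). Its contact total was 115.0 and 161 CPM in the differentiation libraries, against 33.0 and 28.7 CPM in the controls. The groups did not overlap, and the lower differentiation library stood at more than 3 times the higher control. The mean was 138 ± 32.5 CPM in differentiation and 30.8 ± 3.02 CPM in controls (SD, n = 2 each), a 4.47-fold difference (log2 change 2.17, SE 0.23, adjusted p = 1.78e-04). The call held in each of 18 alternative fits, with adjusted p up to 0.0314.

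Mov10l1 encodes the RNA helicase that binds piRNA precursors and brings them to processing (chr15:88982891-89055152). It had a contact total of 95.4 and 119 CPM in differentiation, against 43.4 and 38.8 CPM in controls. Again no control library reached a differentiation library, and the means of 107 ± 16.5 CPM in differentiation and 41.1 ± 3.26 CPM in controls (SD, n = 2 each) differed 2.61-fold (log2 change 1.39, SE 0.21, adjusted p = 0.00162). Without control 2 the adjusted p was 0.0920.

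Tdrd5 encodes a tudor-domain protein of germ-cell granules that mice need to silence transposons (chr1:156255296-156304304). Its total was 31.0 and 48.0 CPM in differentiation, against 17.4 and 9.07 CPM in controls. The groups did not overlap, but the spread inside each group was wide, and the rise was 2.99-fold (log2 change 1.61, SE 0.38, adjusted p = 0.0183). The call was lost without control 1 (adjusted p = 0.0678) and without control 2 (0.278).

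**Figure D1:**
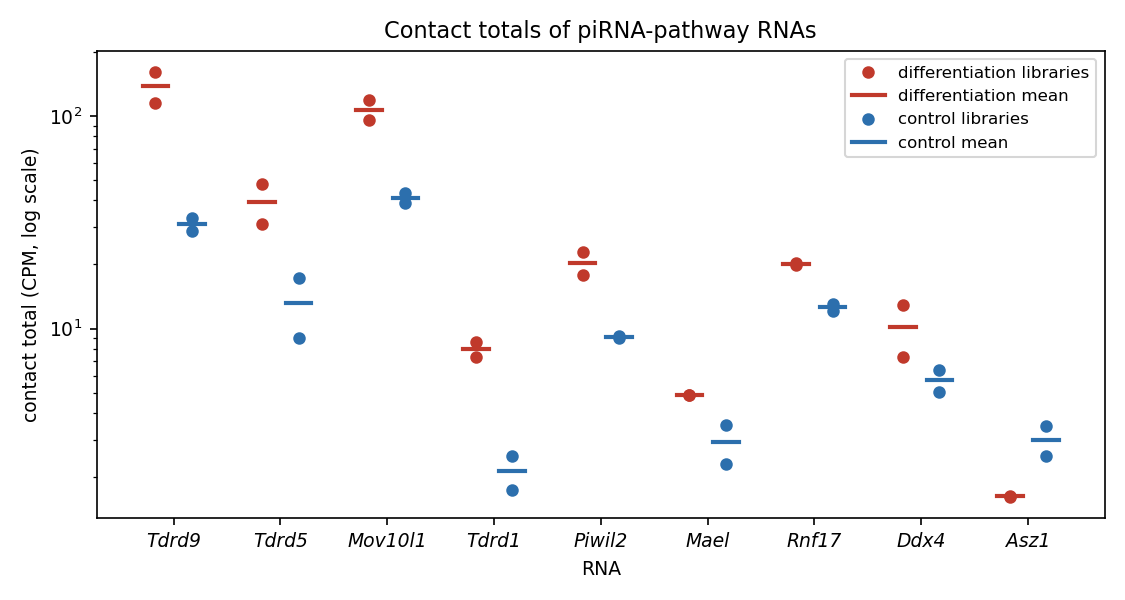
Contact totals of the 9 listed piRNA-pathway RNAs in CPM on a log axis, with points for single libraries and bars for the mean of 2 libraries (differentiation on the left of each pair, control on the right). Of the 9 RNAs, 8 sat higher in both differentiation libraries than in both controls, and Asz1 sat lower.

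Of the 9 listed RNAs 8 were tested, these 3 rose and none fell, where 5.44% of 10993 tested RNAs rose and 6.75% fell. All 3 had been seen to rise in earlier results of these data, so the count is no independent sign. In 8 of the 9 both differentiation libraries stood above both controls, as they did for 26.1% of the tested RNAs. Asz1 missed the filter on low counts and was not tested.

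Among the other nuage components, Piwil2 and Tdrd1 came nearest to a call. Piwil2 encodes MILI, a PIWI protein, and had 22.8 and 17.8 CPM in differentiation, against 9.26 and 9.07 CPM in controls. The difference was 2.22-fold and did not pass (log2 change 1.13, SE 0.39, adjusted p = 0.0830). Tdrd1, a tudor scaffold that binds MILI, had only 9 and 16 counts in differentiation, against 3 and 5 counts in controls, or 7.34 and 8.64 CPM against 1.74 and 2.52 CPM. Its log2 change of 1.87 (SE 0.60) had an adjusted p of 0.0678.

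Rnf17, Ddx4 and Mael did not pass either. Rnf17, a tudor protein with a RING finger, had 20.4 and 19.97 CPM in differentiation, against 12.2 and 13.1 CPM in controls (log2 change 0.67, SE 0.35, adjusted p = 0.254). Ddx4, the germ-cell DEAD-box helicase also called MVH or VASA, had 7.34 and 12.96 CPM in differentiation, against 6.36 and 5.04 CPM in controls (0.86, SE 0.52, adjusted p = 0.319). For Mael, which encodes the nuage protein maelstrom, 6 and 9 counts in differentiation stood against 4 and 7 counts in controls (0.71, SE 0.61, adjusted p = 0.501). Asz1, the nuage scaffold of the outer mitochondrial membrane also called GASZ, had 2 and 3 counts in differentiation and 6 and 5 counts in controls.

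Levels of different RNAs were set beside each other per length, here as CPM per kb of the gene's genomic span. The span includes introns, and whether contacts scale with it was not tested, so the order that follows depends on this choice. Mov10l1 and Tdrd9 led the differentiation libraries, with 1.32 and 1.64 CPM per kb for Mov10l1 and 1.18 and 1.65 for Tdrd9, ranges that overlapped. Tdrd5 followed with 0.632 and 0.980, and Piwil2 with 0.354 and 0.277. Ddx4, Tdrd1, Rnf17 and Mael lay between 0.130 and 0.239 in single libraries, and Asz1 was lowest, with 0.0281 and 0.0279. In controls Mov10l1 led alone with 0.601 and 0.537 CPM per kb. Tdrd9 (0.339 and 0.295) and Tdrd5 (0.354 and 0.185) overlapped there.

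Only Tdrd9, Tdrd5 and Mov10l1 had listed contacts within their own RNA, and all 3 of these pairs rose. Over all RNAs 12.3% of 4439 tested within-RNA pairs rose, and 3.33% fell. The within-RNA counts of Tdrd9, Tdrd5 and Mov10l1 are also part of their totals above, so these rises are no independent sign. Scaled over pairs, the median change of all tested within-RNA pairs was 0.44, so the changes below include a general upward offset. The Tdrd9 pair had 120 and 254 counts in differentiation, against 42 and 42 counts in controls (scaled over pairs, log2 change 2.66, SE 0.29, adjusted p = 3.91e-05). The Mov10l1 pair had 68 and 138 counts in differentiation, against 38 and 37 counts in controls (log2 change 1.97, SE 0.31, adjusted p = 0.00109). For Tdrd5, 34 and 81 counts in differentiation stood against 26 and 14 counts in controls (log2 change 2.01, SE 0.42, adjusted p = 0.00991). Without control 2 this call did not hold (adjusted p = 0.120). When totals were fitted over within-RNA pairs only, the changes were smaller. They were 2.25 for Tdrd9 (adjusted p = 2.08e-05), 1.56 for Mov10l1 (0.00261) and 1.59 for Tdrd5 (0.0325). All 6 other listed RNAs had listed pairs only with other RNAs. Most RNAs lacked a listed within-RNA pair, as only 4836 such pairs were listed for 13318 RNAs. A pair was listed only with at least 1 count in all 4 libraries, so within-RNA contacts missing from any library were not seen. Counts summed over the libraries ran from 16 for Asz1 to 109 for Rnf17 in these 6 RNAs. They ran from 175 for Tdrd5 to 553 for Tdrd9 in the 3 RNAs with a within-RNA pair.

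Within-RNA contacts made up a larger share of the total in differentiation for each of the 3 RNAs. For Tdrd9 the share was 85.1% (95% Wilson interval 78.3 to 90.0%) and 85.2% (80.8 to 88.8%) in differentiation, against 73.7% (61.0 to 83.4%) in each control. For Mov10l1 it was 58.1% (49.1 to 66.7%) and 62.7% (56.2 to 68.8%) in differentiation, against 50.7% (39.6 to 61.7%) and 48.1% (37.3 to 59.04%) in controls. Tdrd5 had 89.5% (75.9 to 95.8%) and 91.0% (83.3 to 95.4%) in differentiation, against 86.7% (70.3 to 94.7%) and 77.8% (54.8 to 91.0%) in controls. The intervals cover counting error only, and those of Tdrd9, Mov10l1 and Tdrd5 overlapped between groups. A share without overlap between groups, and higher in differentiation, was also seen for 37.4% of 3822 RNAs with both kinds of contact, whose median difference was 3.28 percentage points. With 2 libraries a group an exact permutation test cannot go below p = 0.33, so the shares were not tested.

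**Figure D2:**
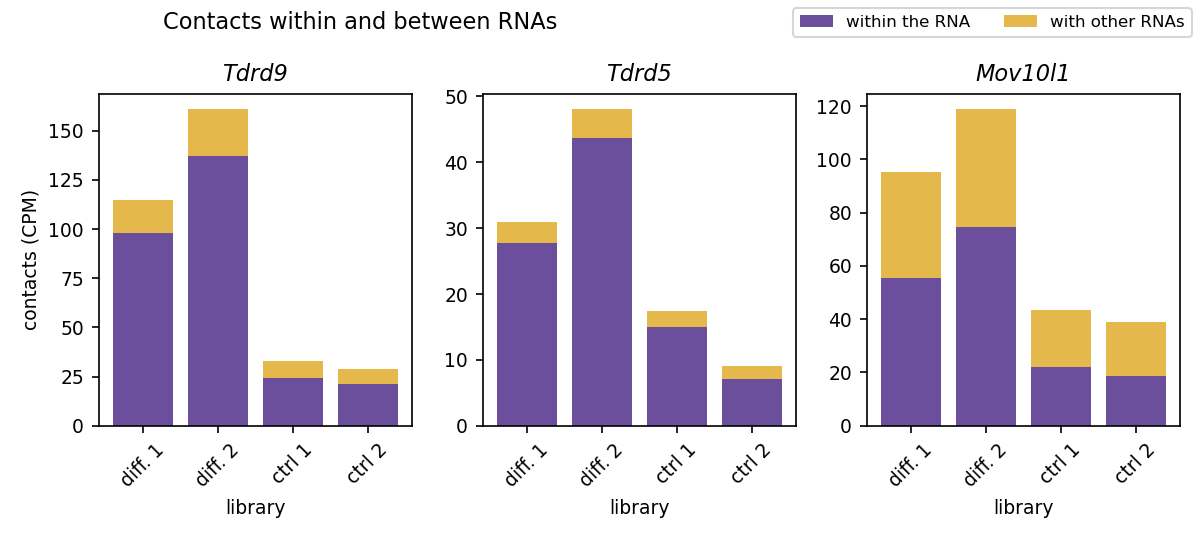
Contacts of Tdrd9, Tdrd5 and Mov10l1 in each library (diff., differentiation; ctrl, control), in CPM on the scale of contact totals, stacked as contacts within the RNA (purple) and contacts with other RNAs (yellow). Tdrd9 and Tdrd5 bars are mostly purple in all 4 libraries, while 48.1% to 62.7% of each Mov10l1 bar is purple.

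Contacts with other RNAs rose as well. Summed over between-RNA pairs only, Tdrd9 had 21 and 44 counts in differentiation, against 15 and 15 counts in controls (log2 change 1.53, SE 0.37, adjusted p = 0.0120). Mov10l1 had 49 and 82 counts in differentiation, against 37 and 40 counts in controls (1.19, SE 0.25, adjusted p = 0.00518). Tdrd5 had only 4 and 8 counts in differentiation, against 4 and 4 counts in controls, and did not pass (0.99, SE 0.62, adjusted p = 0.329). In this fit Piwil2 (1.29, SE 0.36, adjusted p = 0.0237) and Tdrd1 (2.04, SE 0.58, adjusted p = 0.0290) passed too, on the same counts as in their totals, with other scaling factors and fewer RNAs tested. Thus 4 of the 8 listed RNAs tested in this fit rose over between-RNA contacts, where 6.56% of 9648 tested RNAs did. The genes were chosen with earlier results of these data known, so this count is no independent sign either.

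The partners of these RNAs were few. None of the 31 between-RNA pairs joined 2 of the 9 RNAs to each other, and the 31 pairs held only 7 partner RNAs. Of the 656 counts in them, 648 (98.8%) were with 6 RNAs that each had more than 1000 listed partners. Gm42418, which RefSeq lists as the 18S ribosomal RNA pseudogene Rn18s-rs5 on chromosome 17, held 35.7% of the counts and had 8422 partners. Gm26917 held 26.7% with 7584 partners, and Slc9a9, a sodium-proton exchanger gene, held 25.2% with 7833 partners. Shroom3, Gm23935 and Gm12153 held the other counts of these 6. These 6 were picked from the partners of the 9 RNAs themselves, so the comparison that follows is not a like one. For 8 of the 9 RNAs every partner was among these 6 RNAs, as it was for 42.8% of the 12315 RNAs with a between-RNA pair. The exception was Mov10l1 with Zbed4, a zinc-finger gene 198 kb away on chromosome 15, with 3 and 1 counts in differentiation and 1 and 3 counts in controls.

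A larger part of the contacts of these widely paired RNAs went to the piRNA-pathway RNAs in differentiation. Of every 10000 contacts of Slc9a9, 9.13 and 9.25 were with the 9 RNAs in differentiation, against 3.21 and 3.51 in controls. For Gm42418 the values were 6.09 and 8.05 in differentiation, against 3.08 and 3.09 in controls, and for Gm26917 they were 5.84 and 6.04, against 2.70 and 1.77. For Gm23935 and Shroom3 the values were also higher in both differentiation libraries, and for Gm12153 they overlapped between groups. These rates do not depend on the scaling of libraries, and they were not tested. They use counts that are also in the contact totals above, so they are no independent sign. Rates for other sets of RNAs were not computed. Their intervals cover counting error only, not the spread between libraries.

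**Figure D3:**
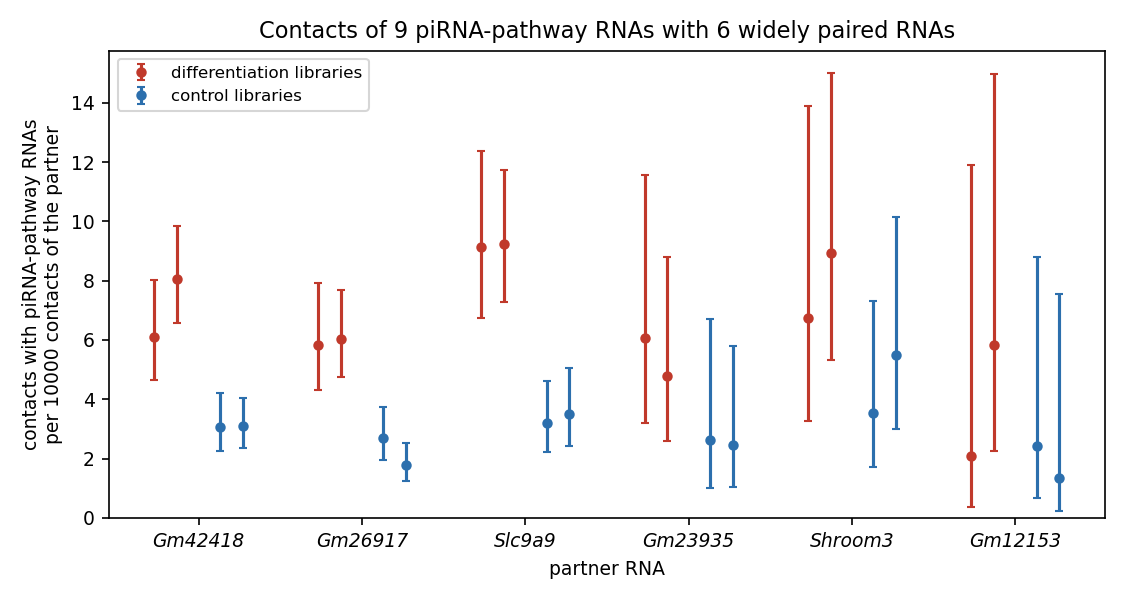
Contacts with the 9 piRNA-pathway RNAs per 10000 contacts of each of 6 widely paired RNAs, 1 point per library with its 95% Wilson interval, which covers counting error only (differentiation on the left of each pair, control on the right). For Slc9a9 the differentiation points are at 9.13 and 9.25 and the control points at 3.21 and 3.51.

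Of the 31 between-RNA pairs 16 had counts enough for a test, 1 rose and none fell, where 1.3% of 27249 tested between-RNA pairs rose and 2.25% fell. The pair that rose was Tdrd1 with Gm26917, with 6 and 15 counts in differentiation, against 1 and 1 counts in controls. The ratio was 15.5 with an exact 95% counting interval of 3.79 to 136.4 (adjusted p = 0.0129), and 1 count is the least a listed pair can have. The call was lost without differentiation 2 (adjusted p = 0.201) and without control 2 (0.0869). The other pair of Tdrd1, with Slc9a9, had 3 and 1 counts in differentiation and 2 and 4 counts in controls.

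Contacts with Slc9a9 came next. Piwil2-Slc9a9 had 8 and 11 counts in differentiation, against 3 and 2 counts in controls (log2 change 2.42, SE 0.72, adjusted p = 0.0594). Tdrd9-Slc9a9 had 4 and 10 counts in differentiation, against 2 and 1 counts in controls, a ratio of 6.89 (counting interval 1.92 to 37.4, adjusted p = 0.0731). Mov10l1-Slc9a9 had 10 and 26 counts in differentiation, against 9 and 7 counts in controls (1.66, SE 0.56, adjusted p = 0.0957). None of the 3 passed. Rnf17-Slc9a9 had 8 and 8 counts in differentiation, against 6 and 7 counts in controls, Mael-Slc9a9 had 4 and 5 against 3 and 2, and Ddx4-Slc9a9 had 3 and 5 against 3 and 3. These 3 pairs did not pass or were not tested.

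Contacts with the ribosomal pseudogene RNA Gm42418 were higher in differentiation by 1.72 for Tdrd9, 1.37 for Mov10l1, 1.32 for Rnf17 and 0.98 for Piwil2 on the log2 scale, with adjusted p from 0.128 to 0.332. With Gm26917, Tdrd9 had a change of 1.16 and Mov10l1 one of 0.77, and neither passed. Rnf17-Gm26917 had 5 and 6 counts in differentiation and 6 and 5 in controls. Scaled to library size these were 7.11 and 5.75 CPM in differentiation, against 5.06 and 3.59 CPM in controls (0.55, SE 0.67, adjusted p = 0.719). Ddx4-Gm42418 had 5 and 13 counts in differentiation and 6 and 1 counts in controls (1.83, SE 0.77), and Ddx4-Gm26917 had 1 and 6 counts in differentiation and 2 and 6 counts in controls (0.34, SE 0.84), where the groups overlapped. Piwil2-Gm26917, with 9 and 4 counts in differentiation and 2 and 1 counts in controls, was below the filter and had a ratio of 6.40 (counting interval 1.76 to 35.0). Mov10l1 also had 6 and 9 counts with Gm23935 in differentiation, against 2 and 4 counts in controls (adjusted p = 0.142). Tdrd5 had 2 and 6 counts with Gm42418 in differentiation, against 2 and 3 counts in controls, and no pair of it with another RNA was tested. The pair of Asz1 with Gm42418 had 1 and 2 counts in differentiation, against 5 and 3 counts in controls, a ratio of 0.554 (0.0946 to 2.31).

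The pairs with Shroom3, which encodes an actin-binding protein, lay on both sides and were too low to test. Mov10l1-Shroom3 had 3 and 5 counts in differentiation, against 2 and 1 counts in controls, and Tdrd9-Shroom3 had 1 and 4 against 1 and 1. Piwil2-Shroom3 went the other way without overlap, with 1 and 1 counts in differentiation, against 3 and 3 counts in controls (ratio 0.492, counting interval 0.0486 to 2.75). Rnf17-Shroom3 and Mael-Gm42418 each had 2 and 4 counts in differentiation and 1 and 5 counts in controls, and overlapped. The other untested pairs were Rnf17-Gm12153 (1 and 4 counts in differentiation, 2 and 1 in controls), Tdrd9-Gm23935 (3 and 1, against 2 and 1), Tdrd5-Gm26917 (2 and 2, against 2 and 1) and Asz1-Slc9a9 (1 and 1, against 1 and 2).

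Other genes of the pathway lay on both sides of 0. Of a wider list of 26 genes 17 were listed and 16 tested, 4 rose and none fell (5.44% of all tested RNAs rose and 6.75% fell), and the median change of the 16 was 0.23, against −0.00071 over all tested RNAs. Mybl1 encodes A-MYB, a MYB factor that switches on piRNA-pathway and meiotic genes in mouse spermatocytes. The MYB core AACNG stands in capitals in the promoters of Tdrd9, Tdrd5 and Mov10l1, as in most mouse promoters. It was also in those of Mael, Ddx4 and Asz1, which had no called rise. Whether A-MYB had a part in the rises of Tdrd9, Tdrd5 and Mov10l1 was not tested. Mybl1 had 20 and 61 counts in differentiation, against 5 and 5 counts in controls, all of them within its own RNA (log2 change 3.19, SE 0.52, adjusted p = 0.00250). Tdrd12, a tudor helicase of secondary piRNA production, had 43.2 and 47.5 CPM in differentiation, against 10.4 and 10.6 CPM in controls (2.11, SE 0.31, adjusted p = 0.00132). Stk31, a testis kinase gene with a tudor domain, had 69.3 and 75.04 CPM in differentiation, against 29.5 and 32.2 CPM in controls (1.22, SE 0.23, adjusted p = 0.00487). The calls of Mybl1 and Stk31 did not hold when either control was left out (adjusted p up to 0.111), nor did that of Tdrd12 without control 2 (0.0678) or that of Stk31 over between-RNA pairs only (0.130).

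The chaperone gene Hsp90aa1 rose too (1.21, SE 0.18, adjusted p = 0.00124), but most of its counts lay in pairs with near-identical values. Its contact with Ssh2 had 195 and 387 counts in differentiation and 123 and 167 counts in controls. Its contact with the pseudogene Gm12346, on the same chromosome as Ssh2, had 193 and 385 counts in differentiation and 121 and 166 counts in controls, close to the same numbers. Whether a read could be counted in more than 1 pair is not stated in these sources and was not tested, so the value of Hsp90aa1 is uncertain. Its call was also lost without either control (log2 change 1.13 without control 1 and 1.28 without control 2).

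The remaining 12 tested genes of the wider list did not pass, 6 with positive and 6 with negative changes. Piwil1, which encodes the spermatocyte and spermatid protein MIWI, had 4 and 7 counts in differentiation and 3 and 1 counts in controls (1.65, SE 0.79, adjusted p = 0.209). Piwil4, which encodes the nuclear protein MIWI2, had 4 and 23 counts in differentiation and 18 and 11 counts in controls (0.06, turning to −0.34 without control 2). Mov10, the broadly expressed paralog of Mov10l1, had 18.8 and 22.1 CPM in differentiation, against 38.2 and 32.7 CPM in controls, the opposite side from Mov10l1, and did not pass (−0.78, SE 0.30, adjusted p = 0.116). The piRNA trimmer gene Pnldc1 (−0.04, turning to 0.11 under column totals), the tudor genes Tdrd7 (−0.22) and Tdrd3 (−0.37), and the silencing gene Setdb1 (−0.36) were below 0. Dnmt3a, a DNA methyltransferase gene, was at −0.43 (adjusted p = 0.125), but over between-RNA pairs only it fell (−0.75, adjusted p = 0.0105), as it did without differentiation 2 (−0.58, adjusted p = 0.0191). Its pair with the nuclear long RNA Neat1 fell too, as did 2.25% of 27249 tested between-RNA pairs. Dnmt3a-Neat1 had 3 and 2 counts in differentiation, against 14 and 46 counts in controls (−2.92, SE 0.72, adjusted p = 0.0241). Morc1-Neat1 had 2 and 2 counts in differentiation, against 6 and 17 in controls, and did not pass (−1.88, adjusted p = 0.187). Tex15-Neat1 overlapped between groups and was not tested. Contacts of Neat1 in general were not examined here. Tex15 (0.56), Fkbp6 (0.50), Morc1 (0.37) and Kif17 (0.09) were above 0. Tex15 passed without differentiation 1 (adjusted p = 0.0142) and Morc1 without differentiation 2 (0.00535), and both turned below 0 when another library was left out. Henmt1, the methyltransferase that methylates the ends of piRNAs, had 7 and 1 counts in differentiation and 1 and 2 counts in controls, too few to test.

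**Figure D4:**
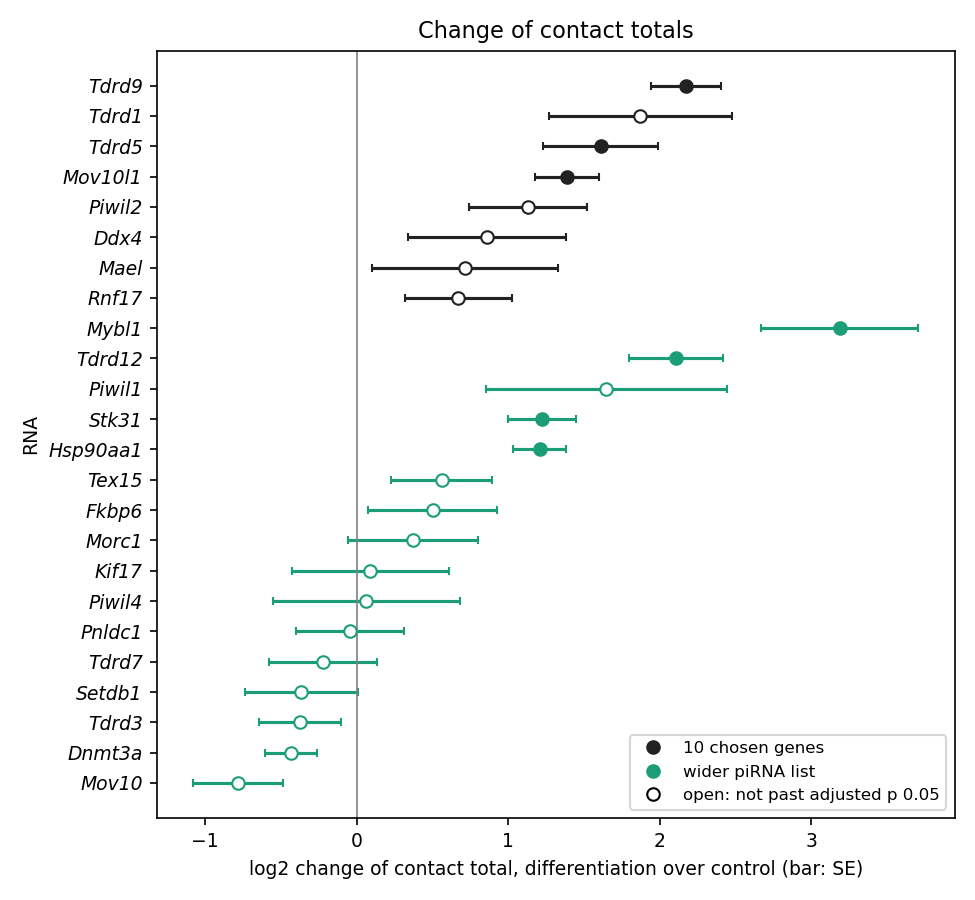
Log2 change of the contact total, differentiation over control, with its SE, for the 8 tested genes chosen by name (black) and the 16 tested genes of the wider piRNA list (green), filled where the adjusted p was under 0.05. Mybl1 (3.19), Tdrd9 (2.17) and Tdrd12 (2.11) are farthest to the right, and Mov10 (−0.78) is farthest to the left.

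The RNAs most like Tdrd9 over the 4 libraries were sought among 2296 tested RNAs with a mean level within 2 times of its own, by Euclidean distance between log2 CPM values centred on the control mean. Smc1b, a meiotic cohesin gene, was nearest at a distance of 0.133, with 98.7 and 142.5 CPM in differentiation and 26.6 and 26.2 CPM in controls. Mir692-3 (0.193) and the X-linked germ-cell gene Tex16 (0.276) followed. For Tdrd5 the nearest of 3627 were Txnrd3 (0.151), 5730508B09Rik (0.213) and Prps1 (0.277). For Mov10l1 the nearest of 2460 were the mitochondrial transfer RNA mt-Tm (0.152), the tubulin pseudogene Tubb4b-ps1 (0.167) and the chromatin protein gene Hmga1 (0.170).

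Markers of several cell types moved in the same libraries, where 5.44% of all tested RNAs rose and 6.75% fell. Of 21 meiotic prophase genes 16 were listed and 11 tested, 7 rose (among them Sycp1, Dmc1 and Stag3) and none fell, and the summed totals were 831 and 1002 CPM in differentiation, against 314 and 295 CPM in controls. Of 14 genes of spermatocytes and spermatids only 3 were listed, and 1 rose. Protamine and transition protein genes were not among them. Of 20 genes of undifferentiated spermatogonia 11 were listed and 9 tested, 3 fell (Gfra1, Shisa6 and Foxo1), and the sums of the list were 432 and 425 CPM in differentiation, against 1068 and 1230 CPM in controls. Id4, Lin28a and Bcl6b were not listed. Of 12 Sertoli cell markers 10 were listed and tested, 7 fell (among them Wt1 and Gata4), and the sums were 829 and 801 CPM in differentiation, against 1559 and 1673 CPM in controls. Of 10 tested fibroblast and feeder markers 4 fell and 1 rose, with sums of 1733.5 and 1875 CPM in differentiation and 1981 and 1827 CPM in controls. Of 6 tested genes of differentiating spermatogonia, 4 of Leydig and peritubular cells and 2 of immune cells none passed. The part of a changed mix of cells in the rises of Tdrd9, Tdrd5 and Mov10l1 was not tested.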

How the data were processed

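The deposited table gave, for each library and RNA pair, a whole-number count of chimeric reads, and the values show no scaling. Per the submitters' processing notes STAR and the build GRCm38 are named, with no role or version. How duplicates and overlapping genes were handled is not stated in these sources. Names were matched to RefSeq genes of GRCm38.p6 (12030 by symbol, 515 by synonym, 773 unmatched), which also gave coordinates and promoter sequences. Contact totals and pairs were each tested over the whole table with edgeR 4.0.16 in R 4.3.3 (TMM, filterByExpr with minimum count 5 and minimum total 10, group as the only term). SE was the log2 change over the square root of F. The biological coefficient of variation was 18.7% over RNAs and 24.9% over pairs. Scripts were tested on simulated data. Members and lists were chosen with earlier results of these data known. The text names the rule's genes with all their pairs, every listed gene of the wider list, and for Tdrd9, Tdrd5 and Mov10l1 the 3 most alike RNAs. Gm12346 and Ssh2 were named after their values were seen. Alternatives were other scaling, filters, dispersion and threshold, a replicate block, DESeq2 1.42.0, other sets of pairs, and leaving out each library (on the same features, the lone library assumed to vary like the other group). Near-identical and overlapping genes can share reads.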

Additional observations from a re-analysis of the deposited data

How the results depend on the processing

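The contact total of Tdrd9 and the within-RNA pairs of Tdrd9 and Mov10l1 kept their direction and call in every alternative run. The Tdrd5 total lost its call over between-RNA pairs only (0.99), and with 1 library left out it ran from 1.20 to 2.13, that of Mov10l1 from 1.21 to 1.57, and the Tdrd5 within-RNA pair from 1.53 to 2.65.

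RNAs with a higher total numbered 598, against 942 under the replicate block, 260 over within-RNA pairs only, 919 at an adjusted p under 0.1, and 46 to 1081 with 1 library left out (107 without control 1, most without differentiation 1). Lower totals numbered 742, against 458 under column totals, 389 over within-RNA pairs only, and 83 to 1022 with 1 library left out (187 without control 1). Higher pairs numbered 902, against 1622 at an adjusted p under 0.1 and 298 to 1454 with 1 library left out (591 without control 1, most without differentiation 1), and lower pairs 760, against 1361 and 345 to 1079. Each of these 4 counts was lowest without control 2. Column totals moved the median of all RNAs to 0.16 and of all pairs to −0.12, and higher calls made up 63.0% over RNAs (44.6% with TMM) and 38.4% over pairs (54.3% with TMM).

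The shared replicate numbers are not said to mark a culture or day. Deviations of same-numbered libraries correlated at 0.15 over RNAs and 0.018 over pairs. With the replicate block, Tdrd1 (adjusted p = 0.0283), Tdrd9-Slc9a9 (0.0440) and Piwil2-Slc9a9 (0.0283) passed, and the calls of Tdrd9, Tdrd5 and Mov10l1 held.

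Some changes that were not called turned sign. With 1 library left out, Piwil4 ran from −1.26 to 0.69, Tdrd7 from −0.43 to 0.02 (0.015 without differentiation 2), Pnldc1 from −0.23 to 0.17, Tex15 from −0.050 to 0.98, Morc1 from −0.34 to 1.31, Kif17 from −0.47 to 0.58 and the Ddx4-Gm26917 pair from −1.05 to 1.16. Without pairs of Gm42418 or Gm26917, Piwil4 was at −0.013, Fkbp6 at −0.076 and Kif17 at −0.41, over within-RNA pairs only Piwil4 was at −0.090, and under column totals Pnldc1 was at 0.11. Calls were gained by Tex15 without differentiation 1 (0.98, adjusted p = 0.0142), Morc1 without differentiation 2 (0.88, 0.00535), Dnmt3a without differentiation 2 (−0.58, 0.0191) and over between-RNA pairs only (−0.75, 0.0105), Mov10l1-Slc9a9 without differentiation 1 (1.98, 0.0251) and Piwil2-Slc9a9 under the default filter (2.41, 0.0491). The cause was not tested. Few counts limit Tdrd1, Mael, Asz1 and most single pairs.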
